A study of Homo sapiens with 4 samples.

Results

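The genes described here are those whose symbol is ZNF and a number of 3 digits beginning with 5, 6, 7 or 8. This stretch of the human zinc finger nomenclature was defined by name and not by any measured value, but it was chosen with earlier results of these data known. The count tables of 56655 symbols listed 244 of them, of which 169 had at least 40 counts summed over the 4 libraries and are described, 54 had fewer counts and 21 had none. RNA-seq was performed in OVCAR5, an ovarian cancer line in which the cells held a nontargeting control hairpin (shCtrl, n = 2 libraries) or else a hairpin against the forkhead transcription factor gene FOXK2 (shFOXK2, n = 2 libraries), to see how the transcriptome differs when FOXK2 is targeted. Both groups were stably transduced with lentiviral particles and grown in the same medium, and both carry the hairpin vector. Each group is 1 transduced line by its labels. The paper describes the sample numbers of its figure panels as biological replicates. How the libraries of a group were cultured, and whether separately, is not described. The p-values thus measure the spread between these libraries, which may be technical.

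C2H2 zinc finger genes form the largest family of transcription factor genes in the human genome, and each finger is a short loop held by a zinc ion that reads a few bases of DNA. Many of them also encode a KRAB domain, which recruits the corepressor TRIM28 and, through it, the histone methyltransferase SETDB1 and heterochromatin proteins, and many KRAB zinc finger proteins bind and silence transposable elements. The genes arose by repeated local duplication and lie side by side in clusters, most of all on chromosome 19. A smaller number of symbols in this range were given to proteins of other kinds, among them corepressors, a ubiquitin ligase of stalled ribosomes and RNA-binding proteins.

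Tandem fingers give these genes a repeating coding unit, in which a finger is followed by a linker that encodes the amino acids TGEKP and the unit then begins again. The first such unit is shown for each of the 10 largest rises and 10 largest falls in which one was found within a single exon, and for ZNF664, a gene of high level that fell, so that the repeat and its base composition can be seen in genes called in either direction. Sequences were read 5′ to 3′ on the coding strand of hg38 within a coding exon of the gene's canonical GENCODE v44 transcript, and capitals mark the codons of the linker.
ZNF711, higher in shFOXK2, chrX:85271061-85271138, plus strand: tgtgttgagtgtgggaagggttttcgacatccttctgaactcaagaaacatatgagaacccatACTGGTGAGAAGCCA
ZNF519, higher in shFOXK2, chr18:14105583-14105660, minus strand: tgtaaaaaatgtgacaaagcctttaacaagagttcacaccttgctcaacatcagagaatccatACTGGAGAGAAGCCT
ZNF714, higher in shFOXK2, chr19:21117187-21117264, plus strand: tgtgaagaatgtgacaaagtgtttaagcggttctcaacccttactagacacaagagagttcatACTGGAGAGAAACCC
ZNF721, higher in shFOXK2, chr4:443723-443800, minus strand: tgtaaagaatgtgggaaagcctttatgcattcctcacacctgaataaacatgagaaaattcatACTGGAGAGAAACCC
ZNF678, higher in shFOXK2, chr1:227654545-227654622, plus strand: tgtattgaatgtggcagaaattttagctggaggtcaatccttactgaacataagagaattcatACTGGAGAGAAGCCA
ZNF814, higher in shFOXK2, chr19:57874085-57874162, minus strand: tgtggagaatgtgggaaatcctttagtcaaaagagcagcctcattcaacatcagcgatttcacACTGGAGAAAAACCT
ZNF888, higher in shFOXK2, chr19:52907515-52907592, minus strand: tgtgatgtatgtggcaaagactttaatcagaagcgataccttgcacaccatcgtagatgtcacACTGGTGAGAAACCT
ZNF766, higher in shFOXK2, chr19:52290776-52290853, plus strand: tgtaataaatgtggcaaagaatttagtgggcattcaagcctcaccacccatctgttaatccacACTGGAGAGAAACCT
ZNF761, higher in shFOXK2, chr19:53455321-53455398, plus strand: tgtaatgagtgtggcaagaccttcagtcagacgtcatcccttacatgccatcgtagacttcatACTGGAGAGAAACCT
ZNF792, lower in shFOXK2, chr19:34958760-34958837, minus strand: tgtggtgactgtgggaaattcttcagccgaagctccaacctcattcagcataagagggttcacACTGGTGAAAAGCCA
ZNF516, lower in shFOXK2, chr18:76442872-76442949, minus strand: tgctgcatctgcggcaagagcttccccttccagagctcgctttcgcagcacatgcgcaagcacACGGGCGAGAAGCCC
ZNF664, lower in shFOXK2, chr12:124012409-124012486, plus strand: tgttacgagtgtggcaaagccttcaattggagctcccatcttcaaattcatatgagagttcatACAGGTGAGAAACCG

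Such a unit was found in 110 of the 169 described genes. Adenine made up 38.5% of the ZNF519 and ZNF721 units shown, 34.6% of those of ZNF714, ZNF678 and ZNF814 and 33.3% of that of ZNF766. The units of the other rises, at 30.8% in ZNF888, 29.5% in ZNF711 and 28.2% in ZNF761, overlapped those of the falls, at 29.5% in ZNF664, 28.2% in ZNF792 and 20.5% in ZNF516. Over all units of a gene, the median adenine content was 33.8% in the 32 genes called higher, 28.3% in the 12 called lower and 32.1% in the 66 that were not called. The groups overlapped widely, with ranges of 18.3% to 37.6% in genes called higher and 17.9% to 33.7% in genes called lower. Reads can fit several genes where transcripts share sequence. For 62 of the 169 genes, at least 5% of the 50-base windows, the length of a read, also occurred in the canonical transcript of another annotated gene. For 15 of them it was at least 20%. Windows were matched on either strand, and how much of the sharing lies in the repeating units was not measured. The median shared part was 2.04% in genes called higher and 7.33% in genes called lower, and overlapping genes at the same locus are included in it.

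Library totals ran from 14284005 to 21950873 counts, and 3 counts corresponded to 0.137 to 0.21 CPM (counts brought to one library size). The hairpin's target was checked first: FOXK2 had 80.5 and 93.4 CPM in shCtrl and 76.3 and 59.6 CPM in shFOXK2. That is −0.36 on the log2 scale (SE 0.25) with an adjusted p of 0.257 by edgeR's quasi-likelihood test with Benjamini-Hochberg adjustment. In these libraries the labelled knockdown was thus a difference that did not pass the threshold at the RNA level. The paper reports lower FOXK2 in OVCAR5 cells with its hairpins by qRT-PCR and by Western blot. Its figure legends name a single hairpin, shFOXK2-2, for the RNA-seq, so the differences described here rest on that hairpin alone. Epithelial keratins and EPCAM were abundant in every library and did not pass the test, whereas CDH1 fell by 4.02 on the log2 scale. Of the ovarian markers, MUC16 fell by 5.76 (397 and 145 counts in shCtrl, 0 and 8 in shFOXK2) and PAX8 by 0.88, and WT1 had at most 2 counts in a library. Of 4 fibroblast markers, COL1A1 had 215 to 324 counts and was not called, and COL1A2, DCN and LUM had at most 5 counts in any library. The leukocyte marker CD14 (124 to 389 counts) fell by 1.14 and the endothelial marker PECAM1 (9 to 154 counts) by 2.45, while PTPRC, CD3E and VWF had at most 7 counts in any library. The nuclear RNA MALAT1 took 0.0239% to 0.0427% of counts in shCtrl and 1.02% to 1.19% in shFOXK2, and the nuclear RNAs NEAT1 and KCNQ1OT1 were also higher, by log2 fold changes of 2.29 and 3.83. The part of these shifts in the results below was not tested.

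As a group, the zinc finger genes were more often higher than lower in shFOXK2. Of the 169 described genes, 44 rose and 20 fell at an adjusted p under 0.05, and 105 were not called. That is 37.9% called, against 48.4% of the 16417 genes tested, a smaller share than the background. The 44 that rose make up 26.04% of the genes described, near the 25.7% of all genes called higher, and the 20 that fell make up 11.8%, below the 22.7% of all genes called lower. All 169 are protein coding. Of the 13089 protein-coding genes tested, 20.48% were called higher and 25.99% lower. Beside these, the share of rises was larger and the share of falls smaller. The median log2 fold change was 0.35, with quartiles of −0.28 and 0.85, against a median of 0.04 over all tested genes. Over the protein-coding genes tested the median was −0.08. In bulk RNA, fewer cells expressing a gene and less RNA per cell cannot be told apart.

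**Figure D1:**
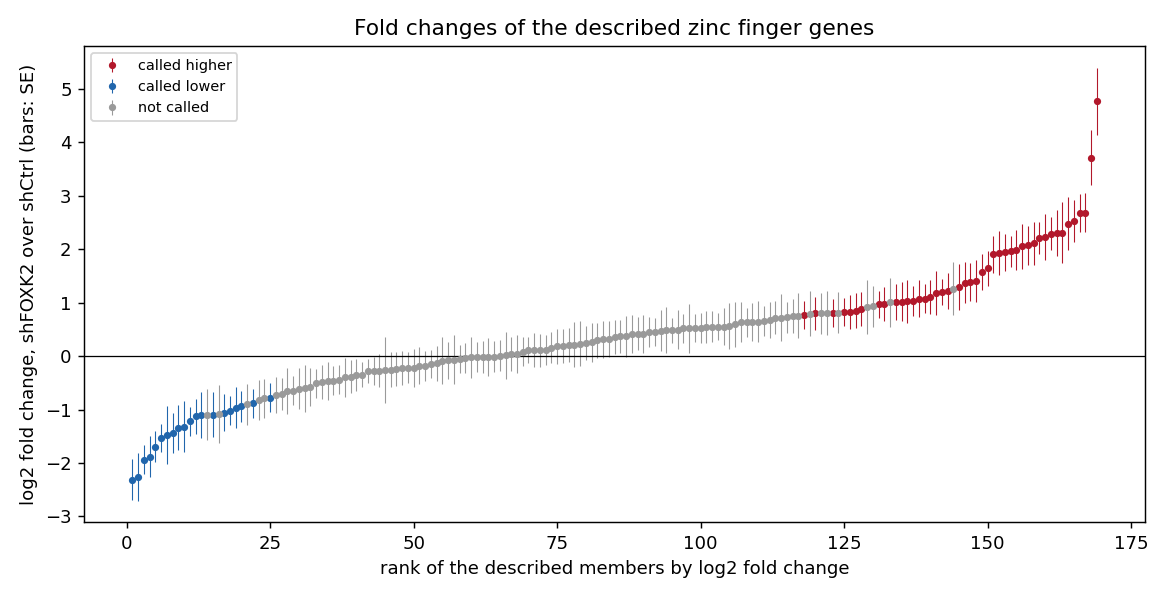
Log2 fold change of shFOXK2 over shCtrl (vertical axis, bars are standard errors) of the 169 described zinc finger genes, ordered by that value (horizontal axis), with 44 genes called higher in red, 20 called lower in blue and 105 not called in grey. The values run from −2.31 (ZNF792) to 4.76 (ZNF711), and 105 of the 169 are positive.

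The 2 libraries of one group lay on one side of the 2 of the other for 120 of the 169 genes, 80 with shFOXK2 above and 40 with shFOXK2 below, which is 71.0% of them beside 75.4% of all tested genes. Among the called genes, 35 rose and 16 fell by more than 1 on the log2 scale, and 14 rose and 2 fell by more than 2. The shares of all tested genes past these cutoffs are not given here, so these counts are not read as particular to the zinc finger genes. The described genes together took 2419 and 2321 CPM in shCtrl and 2991 and 2728 CPM in shFOXK2, so both shFOXK2 libraries were above both shCtrl libraries. At least 1 count was found for 189 and 187 of the 244 symbols in shCtrl and for 197 and 217 in shFOXK2. Over all symbols of the count tables it was found for 25682 and 23724 in shCtrl and for 26780 and 30717 in shFOXK2. The wider detection was thus not particular to the zinc finger genes. Of the 235 numbered ZNF genes outside this range, 185 reached the same count minimum, of which 50 rose and 18 fell, with a median of 0.34.

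ZNF711, an X-linked gene of the ZFX family whose product works with the histone demethylase PHF8, showed the largest rise. In shCtrl 6 and 0 counts were found and in shFOXK2 65 and 75, which is 0.269 and 0 CPM against 4.57 and 4.12 CPM. The groups were far apart, but the fold rests on a control level of a few counts. The gene rose by 4.76 on the log2 scale (SE 0.63, adjusted p = 6.64e-05), which was 3.61 with the adenine offset and became 9.12 without shCtrl replicate 1 and 3.98 without shCtrl replicate 2. The gene lies at chrX:85243991-85273362 on the plus strand and shares no 50-base window with another canonical transcript. ZNF671, a KRAB gene of chromosome 19 chosen after its values were seen because its mean level lay below the minimum set for named genes, had 36 and 44 counts in shFOXK2 and 4 and 3 in the controls. It rose by 3.71 on the log2 scale (SE 0.52, adjusted p = 9.3e-05).

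ZNF638 was the most abundant of the 10 largest rises. Its product, an RNA- and DNA-binding nuclear protein, is known for helping to silence unintegrated retroviral DNA together with the HUSH complex. ZNF638 had 34.4 and 19.1 CPM in shCtrl and 118 and 144 CPM in shFOXK2. Every shFOXK2 value lay above every control value, as the naming rule required, and the rise was 2.29 on the log2 scale (SE 0.30, adjusted p = 6.74e-05). With an offset for the adenine content of the transcript, described further on, the value was 0.55 (adjusted p = 0.0326).

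The other large rises were in genes with long arrays of fingers, from 8 to 23 by pattern. ZNF714 had 9.77 and 5.23 CPM in shCtrl and 37.0 and 59.1 CPM in shFOXK2, and rose by 2.67 on the log2 scale (SE 0.35, adjusted p = 6.52e-05). ZNF519 had 2.55 and 1.43 CPM in shCtrl and 12.4 and 13.6 CPM in shFOXK2, and rose by 2.68 (SE 0.37, adjusted p = 8.21e-05). In both genes replicate 2 was the lower control, and the 2 groups did not overlap, as the naming rule required. ZNF714 was at 1.79 with the adenine offset and 1.86 with the GC offset, and ZNF519 at 2.17 and 1.75. ZNF814, at chr19:57848731-57889074 on the minus strand, had 4.84 and 3.99 CPM in shCtrl and 20.7 and 20.2 CPM in shFOXK2. The replicates of each group were close together, and the rise of 2.21 on the log2 scale (SE 0.31, adjusted p = 8.91e-05) was 2.36 with the adenine offset. ZNF814 shares 15.04% of its windows with other transcripts, mainly of its neighbour ZNF587B, so part of its reads is uncertain.

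ZNF721 had 4.26 and 1.74 CPM in shCtrl and 17.0 and 18.0 CPM in shFOXK2. It rose by 2.52 on the log2 scale (SE 0.39, adjusted p = 0.00021), but its transcript is 36.8% adenine and with the adenine offset the value was 0.21 (adjusted p = 0.595). Without shCtrl replicate 1 it was 3.28. ZNF678, ZNF888, ZNF766 and ZNF761 rose by 2.23, 2.11, 2.07 and 2.05 on the log2 scale, with adjusted p-values from 0.000425 to 0.00138. With the adenine offset ZNF678 was at 1.39 (1.15 with the GC offset), ZNF888 at 1.31, ZNF766 at 2.07 and ZNF761 at 1.01 (adjusted p = 0.048). ZNF678 and ZNF761 moved most with a single control library, to 3.10 and 2.70 without shCtrl replicate 1. ZNF888 and ZNF761 share 17.0% and 10.1% of their windows with other transcripts, mainly those of ZNF701 and ZNF765. In each of these 10 largest rises, replicate 2 was the lower of the control libraries.

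**Figure D2:**
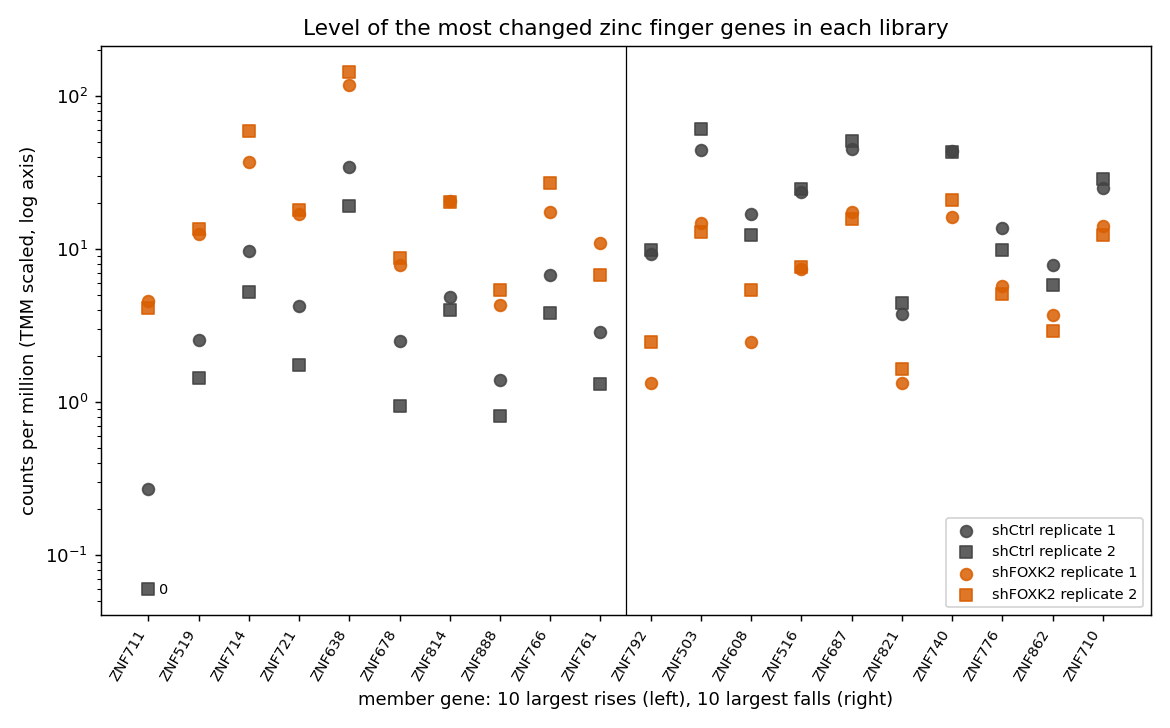
Level of the 10 largest rises (left) and the 10 largest falls (right) in each of the 4 libraries, in CPM on a log axis, with shCtrl in grey, shFOXK2 in orange, replicate 1 as circles and replicate 2 as squares. The groups do not overlap for any of the 20 genes, as the naming rule required, and the square of ZNF711 marked 0 stands for a library without a count.

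Several of the genes that fell encode regulators that are not KRAB proteins. ZNF503, a corepressor of the NET family with roles in limb and brain development, had 44.6 and 61.1 CPM in shCtrl and 14.7 and 13.0 CPM in shFOXK2. It fell by 1.93 on the log2 scale (SE 0.28, adjusted p = 0.000119). The gene lies at chr10:75397830-75401764 on the minus strand, and 9.19% of its windows also occur in other transcripts, mainly that of its neighbour ZNF503-AS2. Windows were matched on either strand and no read was examined, so part of its reads may be uncertain.

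ZNF687, which binds the chromatin reader ZMYND8 and is mutated in a form of Paget disease of bone, had 44.9 and 50.6 CPM in shCtrl and 17.4 and 15.7 CPM in shFOXK2. The replicates of each group were close together, and the gene fell by 1.53 on the log2 scale (SE 0.26, adjusted p = 0.000407). The related ZMYND8 partners ZNF532 and ZNF592 did not pass the test, with −0.71 (SE 0.30, adjusted p = 0.0632) and −0.35 (SE 0.24, adjusted p = 0.248). ZNF532 was called lower with the adenine offset, at −0.64 (adjusted p = 0.0404), and ZNF592 was then at 0.0034. ZNF516, known for its role in brown fat and as a partner of the corepressor CtBP, had 23.7 and 24.7 CPM in shCtrl and 7.38 and 7.58 CPM in shFOXK2, and fell by 1.69 on the log2 scale (SE 0.28, adjusted p = 0.00036).

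ZNF792, a KRAB gene with 12 fingers by pattern, showed the largest fall. It had 9.28 and 9.90 CPM in shCtrl and 1.34 and 2.47 CPM in shFOXK2, and fell by 2.31 (SE 0.38, adjusted p = 0.000299). ZNF608 had 16.9 and 12.4 CPM in shCtrl and 2.46 and 5.38 CPM in shFOXK2. It fell by 1.89 on the log2 scale (SE 0.38, adjusted p = 0.00133), and by 2.61 without shFOXK2 replicate 2, the higher of its group. The remaining falls among the 10 largest were ZNF821, ZNF740, ZNF776, ZNF862 and ZNF710, with log2 fold changes of −1.44, −1.22, −1.13, −1.06 and −1.02 and adjusted p-values from 0.00208 to 0.023. Of these, ZNF821 and ZNF862 share 48.6% and 30.8% of their windows with other annotated transcripts. ZNF776 and ZNF862 were no longer called without shCtrl replicate 1, at −0.91 (adjusted p = 0.0743) and −0.87 (adjusted p = 0.138), and ZNF862 also not without shFOXK2 replicate 2, at −0.93 (adjusted p = 0.0581), with the adenine offset, at −0.75 (adjusted p = 0.0857), or with the GC offset, at −0.76 (adjusted p = 0.0793).

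The genes with most RNA per length were not those that moved most. Levels are given here as mean CPM per kilobase of transcript over the 4 libraries, which compares genes with each other. ZNF703, the other NET family corepressor and an oncogene amplified in luminal breast cancer, led with 47.9 and was followed by ZNF787 with 35.6, ZNF580 with 27.5, ZNF768 with 27.2, ZNF706 with 25.4, ZNF581 with 22.4, ZNF598 with 21.3 and ZNF664 with 17.4. ZNF706, a short protein with a single finger by pattern, rose by 1.20 on the log2 scale (SE 0.24, adjusted p = 0.00125), from 41.2 and 40.9 CPM to 98.3 and 91.1 CPM. Its replicates differed little in either group, but with an offset for GC content the value was 0.48 (adjusted p = 0.111). ZNF664 fell by 0.89 (SE 0.26, adjusted p = 0.0136), from 117 and 78.0 CPM to 53.4 and 52.2 CPM, and at −0.61 (adjusted p = 0.0781) was not called without shCtrl replicate 1.

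ZNF580 and ZNF581 overlap on the same strand of chromosome 19. ZNF580 rose by 0.82 (SE 0.26, adjusted p = 0.0187), which was 0.64 (adjusted p = 0.156) without shFOXK2 replicate 2 and 0.71 (adjusted p = 0.0637) without shCtrl replicate 1, while ZNF581 was at −0.51 (SE 0.27, adjusted p = 0.133). The difference between them was not tested. ZNF703, ZNF787 and ZNF768 were not called, at 0.49 (adjusted p = 0.1), 0.55 (adjusted p = 0.0909) and 0.72 (adjusted p = 0.0549). With the adenine offset they passed the test, at 0.61, 0.76 and 1.05 on the log2 scale. ZNF787 and ZNF768 were also called without shCtrl replicate 2, at 0.78 (adjusted p = 0.0338) and 0.83 (adjusted p = 0.0441), and ZNF768 at 1.03 (adjusted p = 0.0107) without shFOXK2 replicate 2.

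Groups of known function were small, and most of their members were not called. In the group of translation genes, ZNF598, the ubiquitin ligase that marks collided ribosomes, was at 0.55 (SE 0.29, adjusted p = 0.132). ZNF598 was called higher with the adenine offset (0.90, adjusted p = 0.0093), the GC offset (0.66, adjusted p = 0.0326) and without shFOXK2 replicate 2 (0.85, adjusted p = 0.035), and was at 0.091 without shFOXK2 replicate 1. ZNF622, a maturation factor of the large ribosomal subunit, was at −0.18 (SE 0.28, adjusted p = 0.628), and its sign turned with either offset and without shCtrl replicate 2. ZNF593, also of ribosome assembly, is one of the 21 symbols listed at 0 in all 4 libraries, and 16 of these overlap another annotated gene, so a listing at 0 is not read as absence of the RNA. ZNF830, linked to splicing, was at 0.52 (SE 0.27, adjusted p = 0.132). Among partners of histone-modifying enzymes, ZNF644, which binds the methyltransferases G9a and GLP, had 21.2 and 14.6 CPM in shCtrl and 37.5 and 38.1 CPM in shFOXK2. It was higher by 1.08 on the log2 scale (SE 0.28, adjusted p = 0.00612), but was at −0.69 (adjusted p = 0.0143) with the adenine offset and 0.13 (adjusted p = 0.574) with a GC offset, so its direction depended on the model. ZNF827, which recruits the NuRD complex, was at 0.52 (SE 0.26, adjusted p = 0.115), but was called higher with the adenine offset (0.67, adjusted p = 0.0165) and the GC offset (0.74, adjusted p = 0.0143), and ZNF521 and ZNF536 had no count and 2 counts. The repressors ZNF649 and ZNF746 were at 0.42 (adjusted p = 0.352) and 0.18 (adjusted p = 0.683), and ZNF746 at −0.42 (adjusted p = 0.4) without shFOXK2 replicate 1.

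Where the genes lie was not used to choose them. Chromosome 19 held 77 of the 169 genes, of which 28 rose and 7 fell with a median log2 fold change of 0.55, and the 92 genes of other chromosomes had 16 rises, 13 falls and a median of 0.11. The 825 tested genes of chromosome 19 outside the numbered ZNF genes had 145 rises, 199 falls and a median of −0.05. With the adenine offset the contrast shrank and the direction of the other genes turned: the 77 genes had 20 calls higher and 8 lower with a median of 0.30, and the 825 had 280 higher and 153 lower with a median of 0.21. No test was made of these differences, since neighbouring duplicated genes are not independent.

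The longest run of neighbours with many rises was at chr19:51804816-53496255, from ZNF577 to ZNF813, where runs were built by joining symbols of the range less than 250 kb apart. It held 27 symbols, 17 of them described, and 9 rose (ZNF766, ZNF888 and ZNF761 among them), 1 fell and the median log2 fold change was 1.02. The gene that fell, ZNF836, was chosen after its values were seen: its counts were 28 and 20 in the controls and 8 and 8 in shFOXK2, and it fell by 1.32 on the log2 scale (SE 0.48, adjusted p = 0.0342). With the adenine offset, 7 genes of the run were called higher and 2 lower, and the median was 0.45. A run of the same chromosome nearer the end, at chr19:57240632-58431736, was mixed: of its 21 described genes, 5 rose and 3 fell, values ran from −1.34 to 3.71, and the median was 0.11. ZNF776 and ZNF814 of this run, less than 250 kb apart, moved in opposite directions.

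**Figure D3:**
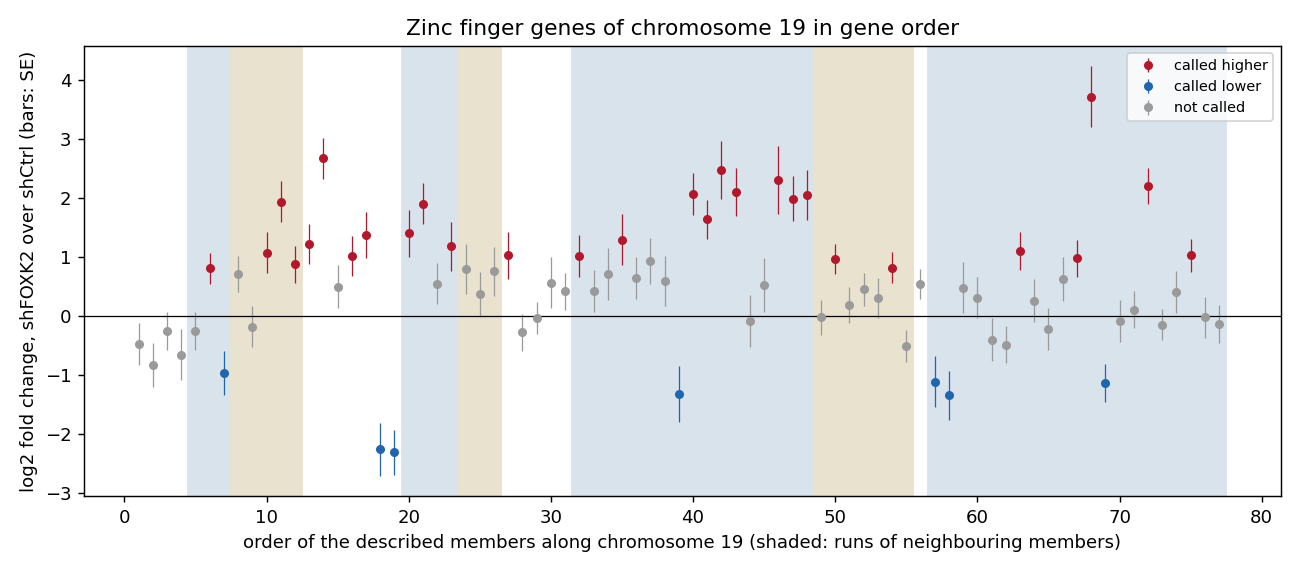
Log2 fold change (vertical axis, bars are standard errors) of the 77 described genes of chromosome 19 in their order along the chromosome (horizontal axis, rank), red where called higher, blue where called lower and grey where not called, with runs of neighbouring genes shaded. The run from ZNF577 to ZNF813 holds 9 of the 28 genes called higher on this chromosome.

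The KRAB domain was looked for as a pattern in the translated coding sequence, which leaves genes with a truncated box, such as ZNF714 and ZNF721, among those without one. The pattern was found in 97 genes, of which 31 rose and 10 fell with a median log2 fold change of 0.42. The 72 genes without it had 13 rises, 10 falls and a median of 0.15. With the adenine offset this order turned, to medians of 0.04 and 0.16. By number of fingers, 5 rose and 6 fell of the 28 genes with 0 to 4, 19 and 4 of the 60 with 5 to 9, 9 and 9 of the 53 with 10 to 14, and 11 and 1 of the 28 with 15 or more, so the counts did not follow the number of fingers in order. Of the genes with 15 or more fingers, 4 were called higher and 3 lower with the adenine offset.

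The adenine content of the transcript also moved with the fold change. Among the 60 genes whose transcript was under 26% adenine, 5 rose and 12 fell, with a median log2 fold change of −0.02. Between 26% and 29%, 8 of 35 rose and 3 fell (median 0.26), and between 29% and 31%, 5 of 30 rose and 5 fell (median 0.17). Between 31% and 33%, 15 of 23 rose and none fell, with a median of 1.03, and from 33% upward 11 of 21 rose and none fell, with a median of 1.08. Over all genes with a matched transcript, the medians in these ranges were −0.32, −0.12, 0.29, 0.73 and 1.57. From the lowest range to the highest, 14.03%, 16.3%, 28.0%, 46.4% and 70.1% of all these genes rose, beside 8.33%, 22.9%, 16.7%, 65.2% and 52.4% of the zinc finger genes. In the same order 33.7%, 25.3%, 11.3%, 5.56% and 2.13% of all fell, beside 20%, 8.57%, 16.7%, 0% and 0%.

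Spearman's rho between adenine content and log2 fold change was 0.45 across the 169 genes, which share libraries and sequence and are not independent replicates, and 0.33 across 14380 tested genes. Within the controls, adenine content had a rho of 0.72 across the 169 genes with the log2 ratio of shCtrl replicate 1 to replicate 2, so adenine-rich members were lower in replicate 2. Between the shFOXK2 replicates the rho was −0.08. The control libraries thus differed from each other along the property that also moved with the fold change, and its part in the result was not tested. When a smooth offset for adenine content was added to the fit, 39 of the 169 genes were called higher and 26 lower with a median of 0.12. Of all 16417 tested genes, that fit called 4635 higher and 3778 lower with a median of 0.07, a larger share in each direction. Only 14380 of these had a matched transcript and took the offset, as all 169 did. Of the 13089 protein-coding genes, which all took it, 3101 were called higher and 3434 lower, with a median of −0.03. Of the 64 genes called without the offset, 43 were also called with it, 42 of them in the same direction.

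**Figure D4:**
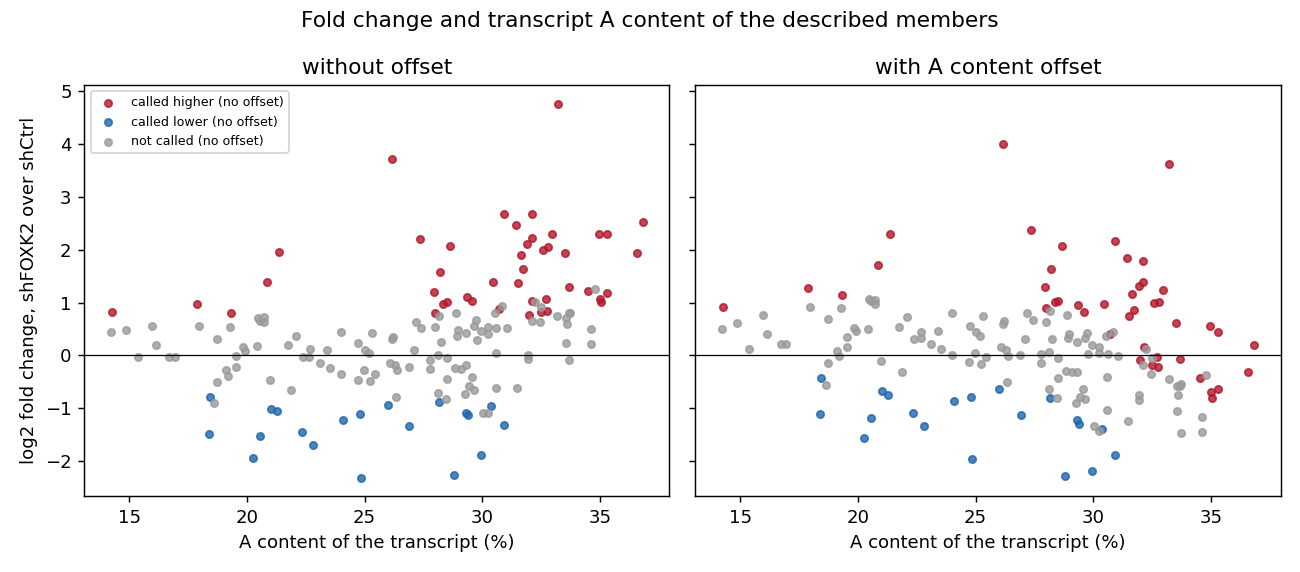
Log2 fold change of shFOXK2 over shCtrl (vertical axis) against the adenine content of the canonical transcript in percent (horizontal axis) for the 169 described genes, without an offset (left) and with a smooth offset for adenine content (right). In both panels colours give the calls made without the offset, and the 26 red points at 31% adenine or more on the left spread on both sides of 0 on the right.

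Promoters were searched for the forkhead core GTAAACA on either strand, with no other motif, in the window from 250 bases before to 50 bases after the RefSeq start (build GRCh38.p14). A promoter was in the table for 142 of the 169 genes. The letters occurred in 2 of them (1.41%), those of ZNF532 and of ZNF589, which was named only for this match after its values were seen, neither of which was called, and in 3.41% of the 27305 promoters in the table. These windows held a median of 24 CG dinucleotides in the described genes, 23 in those called higher and 25 in those called lower, against 14 in all promoters.

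The proteins through which KRAB zinc finger genes act were measured as a list of 27 corepressor genes, of which 26 were tested, 6 rose, 2 fell and the median log2 fold change was 0.29. That is 23.1% higher and 7.69% lower, against 25.7% and 22.7% of all genes tested. MPHOSPH8, a reader of methylated histones in the HUSH complex, had 57.6 and 39.4 CPM in shCtrl and 172 and 225 CPM in shFOXK2, and rose by 2.03 (SE 0.27, adjusted p = 6.86e-05), or 1.16 with the adenine offset. TRIM33, a relative of TRIM28, had 39.3 and 17.8 CPM in shCtrl and 103 and 129 CPM in shFOXK2, and its rise of 2.02 (SE 0.34, adjusted p = 0.000351) was 2.67 without shCtrl replicate 1. CBX3, a heterochromatin protein, rose by 1.71 (SE 0.26, adjusted p = 0.000194), which was 0.50 (adjusted p = 0.068) with the adenine offset. The groups did not overlap for any of these 3 genes, as for 75.4% of all tested genes.

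TRIM28 itself, the corepressor that KRAB domains bind, had 419 and 524 CPM in shCtrl and 888 and 613 CPM in shFOXK2. Its rise of 0.67 (SE 0.26, adjusted p = 0.0454) was 0.38 (adjusted p = 0.355) without shFOXK2 replicate 1 and 0.47 (adjusted p = 0.199) without shCtrl replicate 1, so the call rests on single libraries, and it was also lost with DESeq2 (adjusted p = 0.0531). HDAC2, a histone deacetylase, rose by 1.04 (adjusted p = 0.00425), which was 0.30 (adjusted p = 0.154) with the GC offset. DNMT1, the maintenance DNA methyltransferase, rose by 0.82 (adjusted p = 0.00979), which was 0.65 (adjusted p = 0.0622) without shCtrl replicate 1. ATF7IP, the partner of SETDB1, fell by 0.77 (adjusted p = 0.0435), but was at −0.31 (adjusted p = 0.384) without shCtrl replicate 1, −0.78 (adjusted p = 0.0711) without shFOXK2 replicate 1 and −0.80 (adjusted p = 0.0681) without shFOXK2 replicate 2. HDAC1 fell by 0.58 (adjusted p = 0.0488), but was at −0.49 (adjusted p = 0.228) without shFOXK2 replicate 1, −0.72 (adjusted p = 0.0728) without shFOXK2 replicate 2 and −0.50 (adjusted p = 0.138) without shCtrl replicate 2. With the adenine and GC offsets HDAC1 was at −0.28 (adjusted p = 0.192) and −0.30 (adjusted p = 0.157). TRIM28 was at 0.97 (adjusted p = 0.00308) with the adenine offset, DNMT1 at 1.10 (adjusted p = 0.00107) and ATF7IP at −0.94 (adjusted p = 0.00425), each further from 0 than without it. HDAC2 and TRIM33 were nearer to 0 with that offset, at 0.57 and 1.65. SETDB1 was at −0.48 (SE 0.27, adjusted p = 0.155) without an offset. Of 12 coding genes derived from retroviral elements, 7 were tested, 28.6% of them called beside the 48.4% of all genes: PEG10 rose by 0.67 (adjusted p = 0.0351) and ERVFRD-1 fell by 1.28 (adjusted p = 0.0437), and each of these calls was lost without shFOXK2 replicate 2, at 0.51 (adjusted p = 0.199) and −1.06 (adjusted p = 0.176). Without shCtrl replicate 2 they were also lost, at 0.47 (adjusted p = 0.187) and −1.31 (adjusted p = 0.0985), and ERVFRD-1 at −1.29 (adjusted p = 0.116) without shCtrl replicate 1. ERVFRD-1 was also not called with either offset or with DESeq2 (adjusted p = 0.237). PEG10 was at 0.99 (adjusted p = 0.00505) with the adenine offset.

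**Figure D5:**
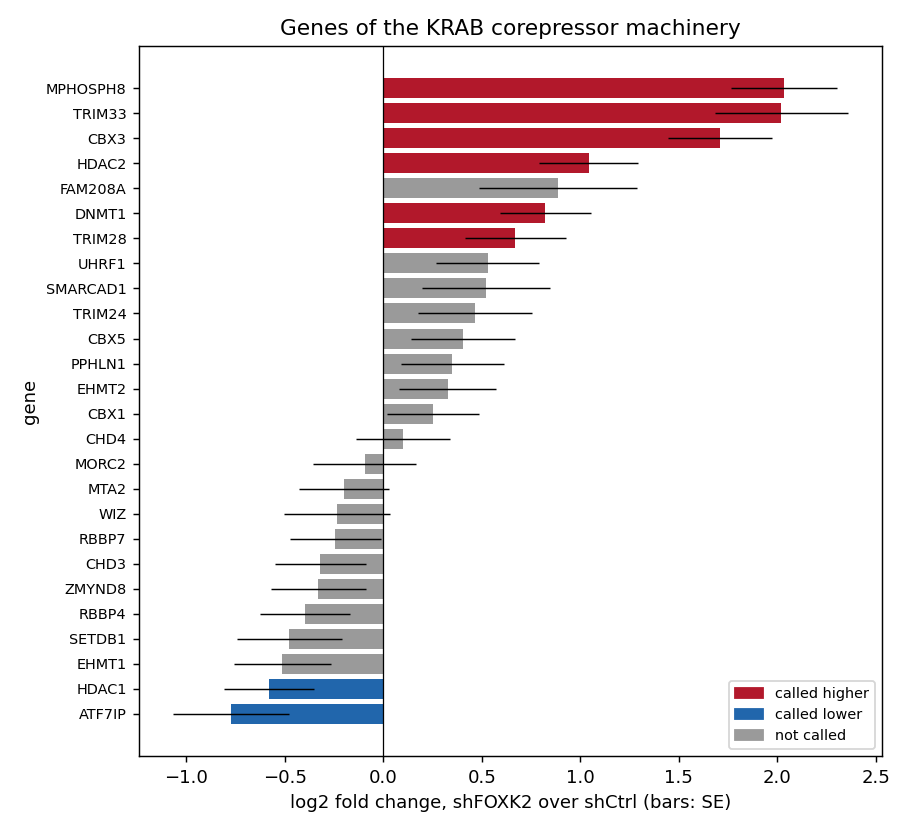
Log2 fold change of shFOXK2 over shCtrl (horizontal axis, bars are standard errors) of the 26 tested genes of the KRAB corepressor machinery, red where called higher, blue where called lower and grey where not called. The 6 genes called higher run from 0.67 (TRIM28) to 2.03 (MPHOSPH8), and FAM208A is the symbol under which TASOR is listed.

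At the count minimum, ZNF860 was described, with 12 and 7 counts in the controls and 16 and 14 with the FOXK2 hairpin, while ZNF658, with 8 and 2 against 13 and 11, fell just outside. ZNF750, a regulator of epidermal differentiation, was tested but lay under the minimum with counts of 2 and 2 in the controls and 10 and 12 in shFOXK2. All 169 described genes passed the filter of the fit. Only 2 of them, ZNF671 and ZNF711, had fewer than 10 counts in both control libraries, and 1, ZNF836, had fewer than 10 in both shFOXK2 libraries. Another gene lies on the opposite strand over 96 of the 169 genes and on the same strand over 72, and 16 of the 64 called genes overlap no other gene, 11 of them higher and 5 lower.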

How the data were processed

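The authors harvested RNA with Trizol, selected polyadenylated RNA, made NEBNext Ultra II libraries and sequenced single reads of 50 bases. Per the labels, reads were aligned to hg38 with STAR 2.5.2 and counted with HTSeq. The deposited values are raw counts per gene symbol, 1 table a library. The annotation and the strand setting are not given in the sources used here, so overlapping genes on opposite strands could have exchanged or lost reads. HTSeq in its usual setting drops reads that fit several places, which lowers near-identical genes.

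Counts were fitted with edgeR 4.0.16 (R 4.3.3), with TMM scaling, filterByExpr and the quasi-likelihood F test without covariates on all 4 libraries, and adjusted by Benjamini-Hochberg over 16417 genes at a threshold of 0.05. SE is the size of the change over the root of F. With 2 libraries a group, an exact 2-sided permutation test cannot go below p = 0.333, so none was used. The fit was also run on simulated counts drawn from the shCtrl means. These held no difference in base composition between libraries, so they cannot show how the fit handles one. Of the 244 symbols, 243 were matched to GENCODE v44, 5 of them through a synonym. Fingers, linkers and KRAB patterns were read from translated GENCODE coding sequences, in place of the RefSeq proteins planned. Offsets were lowess curves (span 0.2) on transcript composition. Promoters came from the RefSeq table.

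Named genes were the 10 largest rises and falls with mean log2 CPM of at least 1, groups that do not overlap and an adjusted p under 0.05, the 8 highest by CPM per kilobase, and tested members of fixed role lists. Members and lists were chosen with earlier results of these data known. Alternatives were DESeq2 1.42.0, its size factors, library size scaling, 2 other filters, composition offsets, a replicate block and leaving out each library.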

Additional observations from a re-analysis of the deposited data

How the results depend on the processing

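The counts of zinc finger genes called higher and lower stayed within 1.5 times the reported 44 and 20 in every alternative run. The median log2 fold change of the described genes moved from 0.35 to 0.12 with the adenine offset, and leaving out 1 library gave medians from 0.20 to 0.34. Gene by gene, the log2 fold change moved by a median of 0.17 with the adenine offset and 0.13 with the GC offset. Without a filter it moved by a median of −0.10. The median over all genes was 0.04 as reported, 0.07 with the adenine offset and 0.08 with the GC offset. The genes' median minus that of all genes was 0.31 as reported, 0.05 with the adenine offset and −0.18 without a filter, where 35068 genes entered the fit and the median of all genes was 0.43. Genes without a matched transcript took no offset but are part of the median of all genes. DESeq2's Wald test called 36 higher and 14 lower.

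Direction turned for ZNF592 (0.0034) and ZNF644 (−0.69) with the adenine offset, for ZNF622 with the adenine offset (0.11), the GC offset (0.17) and the GC offset with replicate block (0.17), and, with 1 library left out, for ZNF622 (range −0.43 to 0.054) and ZNF746 (range −0.42 to 0.57). The cause was not tested. Same-numbered libraries shared a number only: the correlation of their deviations was −0.09, and with the replicate block 42 genes were called higher and 16 lower, 54 of these 58 also without it. Depth limits the weakest genes: 13 described genes had under 10 counts in some library.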
